A study of Mus musculus with 2 samples.

Results

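The genes described here are 10 mouse genes of the granulocyte and monocyte programme. They are Cebpa, Cebpb, Cebpd and Cebpe, which code for CCAAT/enhancer binding proteins (C/EBP), Mpo, Elane, Prtn3, Ctsg and Lyz2, which code for proteins stored in granules, and Itgam, which codes for the integrin chain CD11b. They were chosen by symbol, with no measured value in the rule, from the 21938 protein-coding genes of the GENCODE M21 annotation on mm10, and all 10 were found. The assay was ChIP-seq for H3K4me3, histone H3 carrying 3 methyl groups on lysine 4, which is found at promoters that are active or poised. It was done on MEL cells, a permanently growing mouse leukaemia line of the erythroid lineage, derived from animals infected with Friend virus. The data were 2 libraries of 1 group, with no treatment, genotype, sex or time given in the labels, so no condition was compared. Both libraries are called biological replicates and name the same cell sample, so how far the spread between them is technical is unclear.

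C/EBP proteins are basic leucine zipper factors that bind DNA as pairs. C/EBP-alpha starts the granulocytic programme in progenitors, C/EBP-beta and C/EBP-delta respond to cytokines and inflammation in many tissues, and C/EBP-epsilon acts late, when secondary granules form. With PU.1 and RUNX1 they switch on the genes of the primary granules of promyelocytes, which hold myeloperoxidase and the serine proteases elastase, proteinase 3 and cathepsin G. Erythroid cells normally do not make these proteins. Lysozyme and CD11b mark more mature granulocytes and monocytes.

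A gene is called marked below where it had a peak no farther than 1000 bp from an annotated start (a TSS peak). The main list is that of the replicated peaks, which the depositors derived from the lists of replicate 1, replicate 2 and both pooled. The peak signal value is the depositors' own score against a control. It has no stated unit and is used only to rank peaks within a list. The lists give no numbers of reads. The depth is therefore unknown, and an absent peak says only that none was detected.

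The promoters of 6 genes are shown because they span the range from the strongest mark to no mark, and because their CpG content differs so widely. They are the reference sequence of RefSeq on GRCm38.p6, 300 bases each, from 250 bases before to 50 bases from the start onward, 5′ to 3′ along the gene. Capitals mark each CpG and each match to GAGGAA, the core of PU.1 sites, on the gene's strand. Of the 10 genes, 8 were matched in that table, and Cebpd and Cebpe were not.
Cebpb (chr2:167688665-167688964, plus strand): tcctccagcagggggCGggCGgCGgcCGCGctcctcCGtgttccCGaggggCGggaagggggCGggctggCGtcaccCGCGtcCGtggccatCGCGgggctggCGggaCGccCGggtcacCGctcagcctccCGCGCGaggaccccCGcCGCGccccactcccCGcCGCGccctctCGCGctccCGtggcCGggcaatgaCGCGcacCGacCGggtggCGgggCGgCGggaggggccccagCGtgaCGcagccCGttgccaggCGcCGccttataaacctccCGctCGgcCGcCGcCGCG
Cebpa (chr7:35119043-35119342, plus strand): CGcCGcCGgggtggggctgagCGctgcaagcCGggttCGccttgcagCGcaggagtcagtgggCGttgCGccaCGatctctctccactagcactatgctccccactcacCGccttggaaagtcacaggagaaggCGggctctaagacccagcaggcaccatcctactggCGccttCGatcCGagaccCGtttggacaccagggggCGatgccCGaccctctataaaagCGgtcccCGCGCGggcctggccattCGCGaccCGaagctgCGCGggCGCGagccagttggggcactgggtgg
Prtn3 (chr10:79879417-79879716, plus strand): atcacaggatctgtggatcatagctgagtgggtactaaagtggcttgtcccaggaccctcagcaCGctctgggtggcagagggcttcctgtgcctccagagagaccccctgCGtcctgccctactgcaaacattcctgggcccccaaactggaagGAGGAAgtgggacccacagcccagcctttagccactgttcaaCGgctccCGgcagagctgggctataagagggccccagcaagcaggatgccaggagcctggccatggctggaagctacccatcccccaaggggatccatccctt
Elane (chr10:79886062-79886361, plus strand): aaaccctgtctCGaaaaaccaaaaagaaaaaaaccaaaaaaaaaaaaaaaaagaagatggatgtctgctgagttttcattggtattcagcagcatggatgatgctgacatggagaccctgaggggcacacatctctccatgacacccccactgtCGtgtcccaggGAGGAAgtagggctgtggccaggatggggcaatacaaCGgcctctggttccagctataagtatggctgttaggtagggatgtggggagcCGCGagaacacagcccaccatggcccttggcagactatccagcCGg
Mpo (chr11:87793534-87793833, plus strand): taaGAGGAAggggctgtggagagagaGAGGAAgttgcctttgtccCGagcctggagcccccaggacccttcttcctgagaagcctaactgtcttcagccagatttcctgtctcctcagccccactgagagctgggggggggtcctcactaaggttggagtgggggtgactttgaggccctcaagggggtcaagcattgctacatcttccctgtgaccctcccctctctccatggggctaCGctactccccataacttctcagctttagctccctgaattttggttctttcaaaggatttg
Ctsg (chr14:56102525-56102824, minus strand): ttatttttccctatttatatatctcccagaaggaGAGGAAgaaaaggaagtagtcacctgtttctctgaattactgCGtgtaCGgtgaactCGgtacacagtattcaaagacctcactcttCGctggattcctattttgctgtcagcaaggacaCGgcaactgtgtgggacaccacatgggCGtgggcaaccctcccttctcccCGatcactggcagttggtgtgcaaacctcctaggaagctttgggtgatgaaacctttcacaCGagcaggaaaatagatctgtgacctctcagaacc

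The Cebpb window held 50 CpG and the Cebpa window 29, against a median of 7 over 32851 RefSeq promoters. The Ctsg window held 8, those of Elane and Itgam 6 each, that of Prtn3 4, that of Mpo 2 and that of Lyz2 1. The Cebpb window lay whole under a replicated peak, and none of the 300 bases of the other 7 windows did. The PU.1 core GAGGAA, searched on both strands, was found in the promoters of Elane, Prtn3 and Ctsg (1 match each), Mpo (2) and Itgam (3), against 28.3% of all promoters of that length with a match. It was not found in the windows of Cebpa, Cebpb and Lyz2. In Elane and Prtn3 the match began 85 and 95 bases before the RefSeq start. The C/EBP pattern TTNNGNAA, present in 40.7% of promoters, matched once in Lyz2 and 2 times in Itgam, and 1 of the Itgam matches overlapped a GAGGAA match. The RUNX pattern TGTGGT, in 16.8%, matched in Ctsg and Lyz2. The pattern TATAAA, in 13.6%, matched in Cebpa, Cebpb and Ctsg, and the GATA pattern GATAA, in 25.4%, in none of the 8. These are matches of letters and say nothing on binding.

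H3K4me3 lay at 3 of the 4 C/EBP genes and at 1 of the 6 granule and integrin genes. Cebpb, Cebpd and Cebpa were marked, as was Prtn3, while Cebpe, Elane, Mpo, Ctsg, Lyz2 and Itgam were not. The 4 of 10 compare with 50.3% of all protein-coding genes marked in the same list. The count was 3 of 10 in the replicate 1 list, where Cebpa was missing (50.4% of all genes), and 4 of 10 in the replicate 2 list (50.9%) and in the pooled list (50.6%). A replicated peak overlapped the gene body of 5 of the 10, with Itgam added, against 55.1% of all genes. The strongest TSS peak of the 4 marked genes had a median signal value of 16, between 4.25 and 22.8, against 13.8 over the 11037 marked genes. Of the marked genes only Cebpa had no replicated peak over an annotated start, and its peak began 103 bp from the 5′-most start. At Prtn3 a peak ended 94 bp upstream of the 5′-most start, and another lay over internal starts. The nearest unmarked gene was Elane, at 1973 bp.

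**Figure D1:**
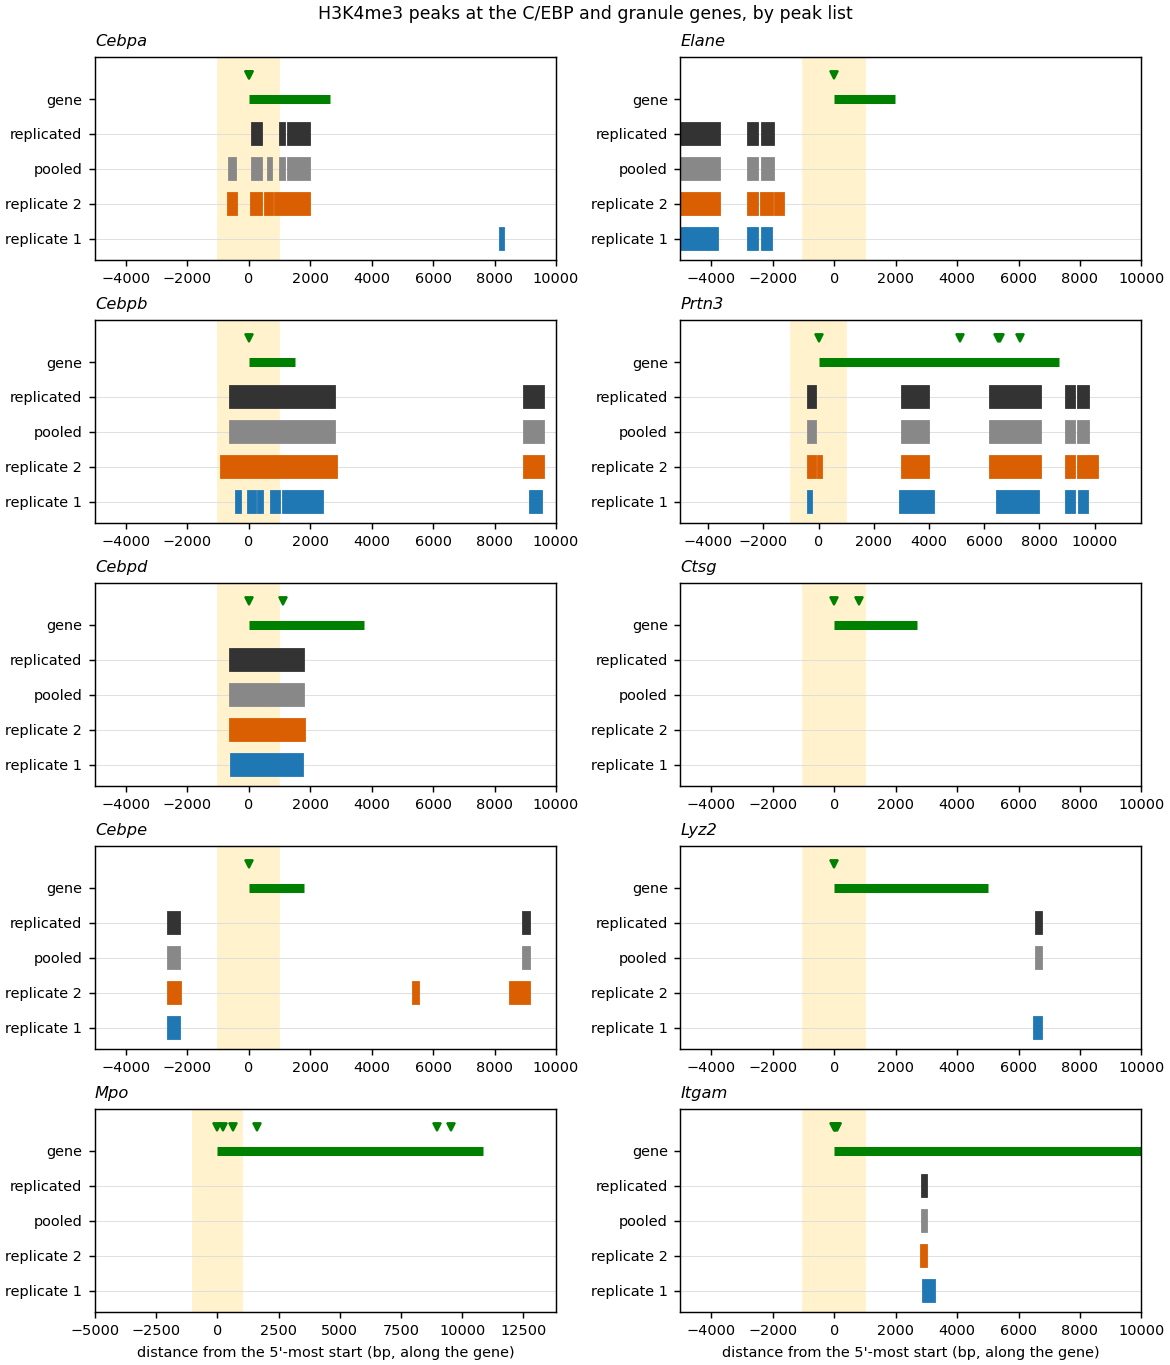
Peaks of the replicated, pooled and single replicate lists around each of the 10 genes, by distance in bp from the 5′-most annotated start along the gene. The green bar is the gene, triangles are annotated starts, shading spans 1000 bp on either side of the 5′-most start, and the stretch shown differs for Prtn3 and Mpo. Cebpb and Cebpd carry 1 replicated peak each over the start, Prtn3 carries separate blocks on both sides of its coding start, and Mpo and Ctsg show none in any list.

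Promoter CpG content was measured over 1001 bases around the 5′-most start. By that start, all 4 marked genes had high-CpG promoters (observed to expected ratio of at least 0.6 and GC of at least 50%), the class in which 79.8% of all genes were marked. All 6 unmarked genes had low-CpG promoters (ratio under 0.4), the class in which 16.6% were marked, against 53.0% in the intermediate class. The ratio was 1.01 at Cebpb, 0.889 at Cebpa, 0.858 at Cebpd and 0.720 at Prtn3. It was 0.369 at Cebpe, 0.264 at Ctsg, 0.220 at Itgam, 0.217 at Elane, 0.148 at Mpo and 0.0981 at Lyz2. For Prtn3 the class is that of a non-coding upstream start with a weak peak (3.84), while its strongest TSS peak lies over internal starts that are mostly low-CpG, with ratios from 0.290 to 0.427. The match of call and class therefore does not hold for that peak. Promoter class and gene role cannot be told apart here. The C/EBP genes other than Cebpe are high-CpG. The granule genes, judged at their 5′-most coding starts, are low-CpG, though a later coding start of Mpo is intermediate (0.425).

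**Figure D2:**
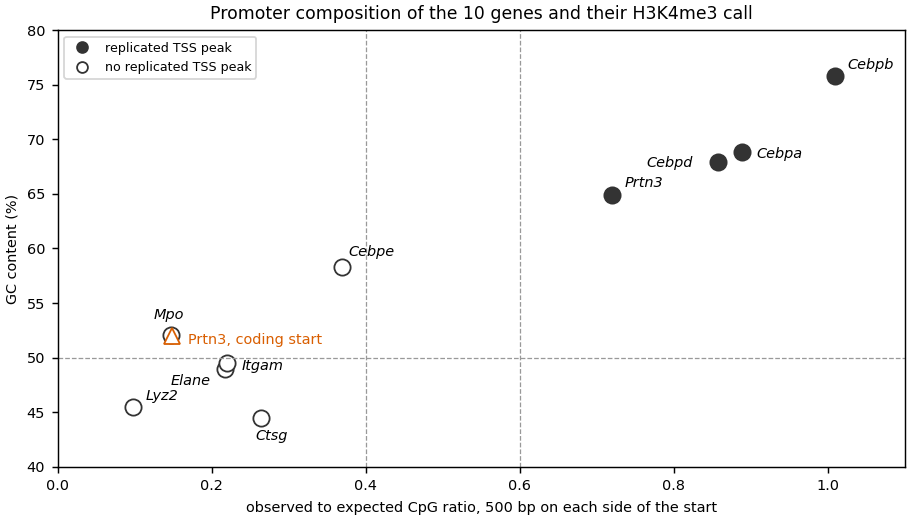
Observed to expected CpG ratio (horizontal) and GC content in percent (vertical) of 1001 bp around the 5′-most start of each gene, filled where the gene had a replicated TSS peak. Dashed lines are the class limits. The filled points lie at ratios from 0.720 to 1.01 and the open ones from 0.0981 to 0.369, and the coding start of Prtn3 (triangle) lies beside Mpo.

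Cebpb, an intronless gene of 1504 bp on chromosome 2 (167688915 to 167690418, plus strand), carried the strongest mark of the 10 in the replicated, pooled and replicate 2 lists, though not in replicate 1, where Cebpd and Prtn3 ranked higher. Its replicated peak spanned 3405 bp (167688314 to 167691718), covered 100% of the gene and had a signal value of 22.8 and a −log10 q of 113. It ranked 580 of 11037 marked genes, with 5.25% of them higher. The summit lay in the exon, 1481 bp downstream of the start and not at it. The start of Tmem189, on the other strand and 907 bp into Cebpb, lies under the same peak, so the mark cannot be given to Cebpb alone. A second replicated peak, 661 bp wide with a signal value of 6.50, lay downstream of the gene with its summit 9269 bp from the start, in both replicates. The neighbours within 100 kb, Ube2v1, Gm20431 and Tmem189, were all marked.

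The replicates drew Cebpb differently. In replicate 2 it was 1 peak of 3761 bp with a signal value of 24.4, ranked 973 of 11176 marked genes. In replicate 1 the same stretch held 5 separate peaks, with signal values of 3.41, 7.81, 4.37, 8.45 and 19.4 from the upstream end onward. The last and strongest, from 167690040 to 167691325, lay more than 1000 bp from the Cebpb start, so the gene ranked only 9060 of 11051 in that list, with 81.97% higher, while Tmem189 kept the value of 19.4. Such splitting was rare, and less so among wide peaks. Of the 9757 different peaks that were strongest at a marked gene, 10 (0.102%) were split into 5 or more peaks in replicate 1 and 1 (0.0102%) in replicate 2. Among the 487 that were at least 3000 bp wide, as the Cebpb peak is, 8 (1.64%) were split in this way in replicate 1 and 1 (0.205%) in replicate 2. The split peaks had a median width of 3494 bp, against 1184 bp for those that met 1 peak. The median GC content of those 10 was 59.1%, against 52.5% for the 6895 that met 1 peak in replicate 1, and the Cebpb peak had 63.5%. The parts of width and base composition in the splitting were not tested.

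Cebpd, on chromosome 16 (15887286 to 15891031, plus strand), carried a single peak in every list. The replicated one spanned 2413 bp (15886676 to 15889088), from upstream of the start over 48.1% of the gene, with its summit in the exon 985 bp from the start. Its signal value of 18.1 ranked 2270 of 11037, with 20.6% of marked genes higher. The value was 14.0 in replicate 1, where 32.9% of marked genes were higher, and 19.9 in replicate 2, where 23.2% were. The widths of 2363 and 2442 bp in the replicate lists were close to each other. The only other protein-coding gene with a start within 100 kb was Mzt2, which was marked.

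Cebpa, on chromosome 7 (35119293 to 35121928, plus strand), had only weak and broken peaks although its promoter is high-CpG. The replicated list held 3 narrow peaks in the gene. The first (35119396 to 35119713) had a signal value of 4.25, with 98.1% of marked genes higher, and was the only one within 1000 bp of a start. The next was 159 bp wide with a value of 3.0. The third (35120571 to 35121276) was the strongest, at 6.20 with a −log10 q of 7.89, and its summit lay 1558 bp into the gene. Together they covered 44.9% of the gene. All 3 also lie within 1000 bp of the start of Gm45091, an antisense RNA gene on the other strand. H3K4me3 does not tell the strands apart.

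All 3 Cebpa peaks were overlapped in replicate 2 alone. That list held 4 TSS peaks, the strongest with a signal value of 7.88 (91.8% of its marked genes higher). In replicate 1 no peak overlapped the gene, and the nearest began 8161 bp from its start. Over the whole replicated list, 4.74% of peaks had no overlap in replicate 1 and 2.56% had none in replicate 2. The 106 peaks that were strongest at a marked gene and met no replicate 1 peak had a median GC content of 62.1% and a median width of 247 bp. For the 6895 that met 1 peak these were 52.5% and 1184 bp. The Cebpa peaks had 72.0%, 59.1% and 57.9% GC and were 318, 159 and 706 bp wide. Genes marked in replicate 2 alone, 212 in all, had a median promoter GC content of 54.5%, the 87 marked in replicate 1 alone had 49.9%, and the 10964 marked in both had the highest, 58.6%. The parts of width, signal and base composition in the missing replicate 1 peaks were not tested.

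**Figure D3:**
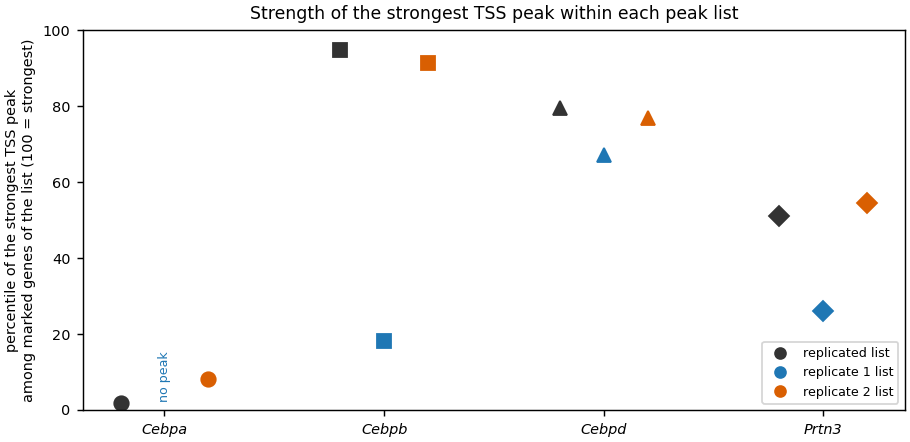
Percentile of the strongest TSS peak among the marked genes of the same list (vertical, 100 is the strongest) for the 4 marked genes, in the replicated list and each replicate list. Cebpa has no point for replicate 1, and Cebpb drops in replicate 1, where 81.97% of marked genes were higher against 8.70% in replicate 2.

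Downstream of Cebpa lay a peak at no annotated start. It spanned 583 bp (35156343 to 35156925) with a signal value of 5.40 and a −log10 q of 5.96, its summit was 37512 bp from the Cebpa start, and both replicate lists held a peak there. An enhancer active in myeloid progenitors is known downstream of Cebpa, and for that reason 250 bases around the summit are shown, read from GRCm38.p6 on the plus strand. Capitals mark matches to the RUNX pattern TGTGGT and the GATA pattern GATAA on either strand.
Cebpa distal peak (chr7:35156676-35156925, plus strand): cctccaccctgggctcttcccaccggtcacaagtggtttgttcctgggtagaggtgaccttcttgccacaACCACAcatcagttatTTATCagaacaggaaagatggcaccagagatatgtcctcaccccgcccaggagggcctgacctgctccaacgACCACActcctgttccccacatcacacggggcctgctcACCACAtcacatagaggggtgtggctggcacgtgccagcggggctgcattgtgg
The window held 3 RUNX matches and 1 GATA match, and no match to the PU.1 or C/EBP pattern. Of 30986 windows of the same width at replicated peaks, 13.8% held a RUNX match, 0.0839% held 3 or more and 24.5% held a GATA match. A PU.1 match was held by 23.6% and a C/EBP match by 40.0%. The limit of 3 is the count of this same window, so the 0.0839% is a description and not a test. Here too these are matches of letters and say nothing on binding. A further peak 52913 bp from the start had a signal value of 4.52 and was overlapped in replicate 2 only. Of the 4 genes with a start within 100 kb of Cebpa, Cebpg was marked and Slc7a10 and Lrp3 were not. Pepd was marked too (23.2), but at a start outside that distance.

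Cebpe, on chromosome 14 (54710360 to 54712174, minus strand), had no peak in its body or within 1000 bp of its start in any list. The nearest replicated peak lay 2229 bp upstream (54714403 to 54714799), with a signal value of 4.45 and a −log10 q of 12.7, and both replicates held it. A weaker one downstream of the gene (4.01) was overlapped in replicate 2 alone. The nearest peak was closer than at most unmarked genes: 97.5% of the 10901 unmarked protein-coding genes were farther from a replicated peak, and their median distance was 65244 bp. Around Cebpe 6 of 8 neighbours within 100 kb were marked, namely Psmb5, Gm17606, Cdh24, 1700123O20Rik, Acin1 and Slc7a8, and Psmb11 and Gm29776 were not. Gm17606 and Cdh24 counted through the same peak, as did 1700123O20Rik and Acin1. Over all protein-coding genes 50.3% were marked, and 79.8% in the high-CpG class, to which most of these neighbours belong.

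Prtn3, coding for proteinase 3, was the only granule gene of the set with a TSS peak, and the peak did not lie at its main coding start. The annotated gene spans 79874476 to 79883174 on chromosome 10, plus strand, because a non-coding transcript begins far upstream. That upstream start lies 158 bp from the start of Plppr3 on the other strand, and the weak peak there (79874095 to 79874382, signal value 3.84) counts for both genes. The main coding transcript begins at 79879614, where the CpG ratio was 0.148, as low as at Mpo. No replicated peak lay within 1000 bp of it. The nearest began 1082 bp away, and the distance was 941 bp in replicate 1 and 1077 bp in replicate 2. Measured from the RefSeq start at 79879667, whose promoter is shown above, it was 1029 bp in the replicated list, 994 bp in replicate 1 and 1024 bp in replicate 2.

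Peaks stood on both sides of that coding start. Upstream, an intronic peak of 1001 bp (79877483 to 79878483) had a signal value of 5.44. Downstream, a peak of 1825 bp (79880696 to 79882520) had a value of 13.95 and a −log10 q of 48.1, and ranked 5389 of 11037, with 48.8% of marked genes higher. It lay over 4 annotated starts inside the gene, of which 1 belongs to a protein-coding transcript, and this is what made Prtn3 marked at more than a weak peak. In replicate 1 its value was 9.50, with 73.9% of marked genes higher, and in replicate 2 it was 16.2, with 45.5% higher. With 2 narrow peaks past the end of the gene it formed a domain of 3579 bp, wider than at most marked genes, since 15.5% had a wider one and the median was 2258 bp. With gaps of up to 500 bp merged it was 1825 bp. The same blocks appeared in both replicates.

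Elane, coding for neutrophil elastase, lies next to Prtn3 (79886247 to 79888215, plus strand) and had no peak at its start or in its body. The 2 narrow peaks between the genes had signal values of 4.58 and 5.71, and the nearer one ended 1973 bp upstream of the Elane start. The nearest peak was 2018 bp away in replicate 1 and 1641 bp in replicate 2. Of unmarked genes, 97.8% were farther from a replicated peak. In the Elane promoter 22.7% of the 32-base words also occur elsewhere in the genome, and reads from such words can be lost in mapping. The Elane gene body held 0% such words. The part of repeated words in the missing peak at the start was not tested.

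The proteases sit in a stretch of mostly marked genes. Within 100 kb of Elane, 11 of 15 protein-coding neighbours were marked, as were 11 of 16 around Prtn3. Over all protein-coding genes 50.3% were marked, and in the high-CpG class, to which most of these neighbours belong, 79.8%. Kiss1r and R3hdm4 counted through the same peak. Nearest to Elane, Prtn3 and Plppr3 upstream were marked, while downstream Cfd, which codes for the serine protease complement factor D, was not, and Med16 was (signal value 11.1). Ptbp1, upstream of Prtn3, was marked at 11.6. Within 100 kb of Elane 25 replicated peaks were listed, and none of them lay between the last one upstream of Elane and the one at the Med16 start.

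**Figure D4:**
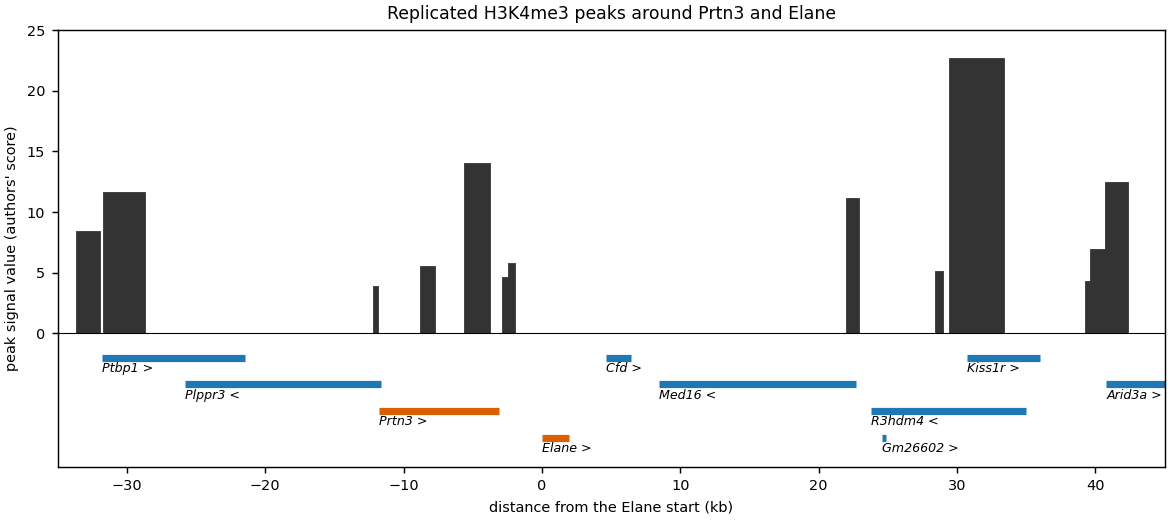
Replicated peaks around Prtn3 and Elane, by distance in kb from the Elane start, with the signal value as height and protein-coding genes drawn below (arrows give the strand). Peaks of 13.95, 4.58 and 5.71 stand before Elane, and none lies over Elane or Cfd.

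Mpo, coding for myeloperoxidase, had no peak in any list within 20 kb of the gene (chromosome 11, 87793581 to 87804413, plus strand). The nearest lay 35666 bp from a start, and 62.4% of unmarked genes were farther from a peak. Of the 8 neighbours within 100 kb, Rnf43, Supt4a and Mks1 were marked, against 50.3% of all protein-coding genes. The related peroxidase genes Lpo and Epx on the same stretch were not, nor were Tspoap1, Olfr462 and Olfr463. None of the 6 annotated starts of Mpo, 2 of them in the intermediate CpG class, had a peak.

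Ctsg, coding for cathepsin G, was the most isolated from the mark (chromosome 14, 56099881 to 56102574, minus strand). No replicated peak lay within 100 kb of it, and the nearest was 172175 bp from a start, farther than at most unmarked genes, since 30.2% of them were farther still. None of its 9 neighbours was marked in any of the replicated and single replicate lists. They are the mast cell protease genes Mcpt1, Mcpt9, Mcpt2, Mcpt4 and Mcpt8 and the granzyme genes Gzme, Gzmd, Gzmg and Gzmn. All but Gzmn are low-CpG, the class in which 16.6% of all genes were marked. In its gene body and promoter 0% of 32-base words were repeated, and the distance was nearly the same in both replicates (172098 and 172175 bp).

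Lyz2, coding for the lysozyme of macrophages and granulocytes (chromosome 10, 117277331 to 117282321, minus strand), had no peak at its start or in its body. A narrow peak of 214 bp lay 1564 bp past its end (117275554 to 117275767) with a signal value of 4.11, and was overlapped in replicate 1 only. In replicate 2 the nearest peak was 56912 bp from the start. Lyz2 has a close copy next to it, Lyz1, also unmarked, and 35.4% of the 32-base words of the Lyz2 body and 8.25% of its promoter were repeated in the genome. Their part in the missing peak was not tested. Of the other neighbours Yeats4 and Cpsf6 were marked and 9530003J23Rik was not.

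Itgam (chromosome 7, 128062640 to 128118491, plus strand) had no TSS peak. Its only peak was an intronic one of 156 bp with its summit 2955 bp from the start (128065504 to 128065659), and its signal value of 3.0 was exceeded by 92.8% of replicated peaks. The −log10 q was 1.53 in both the replicated and the replicate 2 list and 1.12 in replicate 1, the last below the 1.30 that stands for a q of 0.05. Among its neighbours within 100 kb, the overlapping gene Gm49368, Pycard, Trim72 and the integrin genes Itgax and Itgad were unmarked, and Cox6a2 was marked.

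Other genes of the same programme, listed by role, gave counts that differed from list to list. Of 70 genes, 25 (35.7%) were marked, against 50.3% of all genes. Only 15 of the 70 had high-CpG promoters, and 12 of these were marked. Over all genes 79.8% were marked in the high-CpG class, 53.0% in the intermediate and 16.6% in the low-CpG class. All 3 genes listed as other C/EBP genes were marked, and all 3 are high-CpG. Cebpg, which lies upstream of Cebpa, had a value of 21.7, Cebpz 13.5 and Ddit3, a stress-induced member, 7.25. Cebpz was listed by its symbol, not as a basic leucine zipper factor, and it shares its peak with Ndufaf7. Of the 9 partner and upstream factors 6 were marked, with Gata2 (18.1), Runx1 (17.9) and Cbfb (15.8) the highest, and Gfi1, Irf8 and Klf4 were not. Of the 9, 7 are high-CpG, and 4 of these 7 were marked. Spi1, which codes for PU.1 and is the site of proviral insertion in Friend erythroleukaemia, was marked at 13.2 and is named here after its value was seen.

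Genes for granule contents gave unlike counts, which were not tested against each other. Of 9 genes for primary granule content and protease processing 7 were marked, but the highest, Gusb (19.2), Ctsb (19.1) and Ctsd (14.9), code for lysosomal enzymes that most cells make. Of the 9, 2 are high-CpG, and over all protein-coding genes 50.3% were marked. Ctsc, whose product activates the granule serine proteases, was marked at 14.0. Srgn, coding for the granule proteoglycan serglycin, was marked at 11.0, and the granule genes Serpinb1a and Bpi weakly, at 4.58 and 3.50, in both replicates. These 4 are named after their values were seen. Prss57, a neutrophil serine protease, and Cd63 were not marked. None of the peroxidase and lysozyme genes Epx, Lpo and Lyz1 was marked, nor any of 13 granzyme and mast cell protease genes near Ctsg (Gzmb, Gzmc and Gzmd among them). None of 10 genes of secondary and tertiary granules was marked, Ltf, Camp and Ngp among them. None of the genes in these 3 unmarked lists had a high-CpG promoter, and over all low-CpG genes 16.6% were marked. Ltf and Camp are known targets of C/EBP-epsilon.

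Surface genes were mixed. The beta-2 integrin chains Itgb2 (9.85) and Itgal (8.50) were marked, and Itgax and Itgad were not. Of 6 growth factor receptor genes 4 were marked, Il3ra at 17.9, Il6ra at 9.18, Csf3r at 4.58 and Csf2rb at 3.62, and Csf1r and Csf2ra were not. Of the 6, 2 are high-CpG and both were marked, and over all protein-coding genes 50.3% were marked. Of 12 monocyte and neutrophil surface genes 3 were marked, all weakly, Fcgr1 at 7.20, Fcgr3 at 4.83 and Mrc1 at 3.21. Fcgr3 had no TSS peak in replicate 1. Cd14, Ly6g and Ly6c1 were among those that were not marked. Only 1 of the 12 is high-CpG, and over all low-CpG genes 16.6% were marked. Cell type markers were counted in the same way. Their lists were chosen with earlier results of these data known, so the counts cannot check the identity of the line. Of 8 erythroid markers 7 were marked (Slc4a1 was not), against 2 of 6 mast cell markers (Fcer1a and Hdc), 0 of 3 eosinophil and 0 of 3 lymphoid markers. The mast cell count was 3 of 6 in each replicate list. The eosinophil and lymphoid markers are all low-CpG, the class in which 16.6% of all genes were marked. The erythroid list held 2 high-CpG genes.

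**Figure D5:**
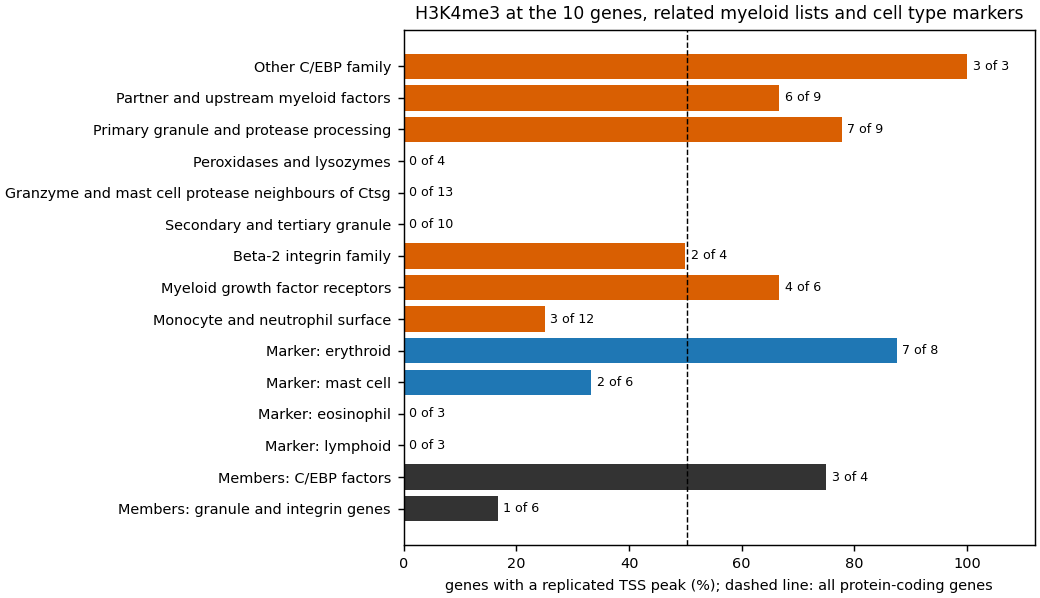
Percent of the genes of each list with a replicated TSS peak (horizontal axis from 0), with the counts beside the bars. Orange bars are related myeloid lists, blue bars cell type markers, dark bars the 10 genes in their 2 groups, and the dashed line is the 50.3% of all protein-coding genes.

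The choice of annotated start decided part of the count. Taken from the RefSeq start of each gene, an alternative added once the data had been seen, 2 of the 8 matched genes were marked, Cebpa and Cebpb, against 50.7% of 16522 protein-coding genes in that table, and none of the 6 granule and integrin genes was. Cebpd, marked from its GENCODE starts, is not among the 8, so Prtn3 was the gene whose call changed. That change was narrow. The Prtn3 RefSeq start lay 1029 bp from a replicated peak and 1024 bp from a replicate 2 peak. In replicate 1 the distance was 994 bp, inside the limit of 1000 bp. With peaks of −log10 q of at least 5 only, Cebpa dropped out and 3 of 10 remained marked.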

How the data were processed

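H3K4me3 ChIP-seq peaks from 2 MEL libraries of 1 group were used as 4 deposited narrowPeak lists on mm10: replicate 1 (51790 peaks), replicate 2 (41508), pooled (41075) and replicated (37387). Per the deposited notes, the authors derived the replicate and pooled lists from alignments and a control, and the replicated list from those 3. Not given in the sources used here are the aligner, the peak caller with its settings, and what made a peak count as replicated. The labels state a size range from 150 to 350 bp. The deposited signal value of each peak is the authors' score. Its definition is not given, so it was ranked within a list only. The deposited −log10 p and −log10 q were copied, and the deposited summit offset gave the summit. In the replicated list 1.77% of peaks had a q above 0.05. The lists hold no reads, so depth and precision are unknown. A list on mm9 was not used.

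Annotated starts (93513) of protein-coding genes on chromosomes 1 to 19, X and Y came from GENCODE M21. Overlap needed 1 bp. TSS domains are peaks merged over gaps of up to 1000 bp, and peaks between genes counted for each. Promoter class used 1001 bp around the 5′-most start: high-CpG with a ratio of at least 0.6 and GC of at least 50%, low-CpG with a ratio under 0.4. Sequences came from RefSeq (GRCm38.p6). Calculations used Python 3.11.15, numpy 2.4.6, pandas 2.3.3 and matplotlib 3.10.9. The peak search was checked on simulated data.

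There is no second condition, so no test was run and all values are descriptions. Named genes are all 10, their neighbours within 100 kb (where there are more than 10, the nearest 2 on each side), every gene of a related list of up to 8, and from longer lists the 3 with the highest signal value and the first 3 that were unmarked. Some genes that this rule names are not reported here. The genes and lists were chosen with earlier results of these data known. The alternatives tried were a TSS window of 500 or of 2500 bp, only the 5′-most start, −log10 q of at least 5, the pooled or either replicate list, the nearest start only and domain gaps of 500 and 2000 bp. The RefSeq start was added after the data were seen.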

Additional observations from a re-analysis of the deposited data

How the results depend on the processing

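The count of 4 marked genes among the 10 was 4 with a window of 500 bp, with the 5′-most start alone, in the pooled list and without replicate 1. It was 6 with a window of 2500 bp, which added Cebpe and Elane, and 3 with −log10 q of at least 5 and without replicate 2, both through the loss of Cebpa. With each peak given to the nearest start only it was 3, as the Cebpb peak went to Tmem189. With RefSeq starts, added after the data were seen, it was 2 of the 8 genes that have one. Prtn3 was marked under every GENCODE setting, and its RefSeq start lay 1029 bp from a replicated peak and 994 bp from a replicate 1 peak. Of 59 neighbours and the 10 genes, 34 were marked, between 31 and 39 over the alternatives, and of the 70 related genes 25, between 22 and 27. The share over all protein-coding genes was 50.3%, and between 46.9% and 51.9% over the alternatives. In the replicate 1 list the percent of marked genes with a higher signal value was 81.97 for Cebpb, 73.9 for Prtn3 and 32.9 for Cebpd, against 5.25, 48.8 and 20.6 in the replicated list. With gaps of 500 bp, the domains of Prtn3 and Cebpa shrank to 1825 and 318 bp. No paired analysis was possible because there is 1 group of 2 libraries. Depth is unknown, so weak peaks such as those at Cebpa, Lyz2 and Itgam, and all missing peaks, may change with more reads.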

Other observations

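Upstream of Mpo, between Supt4a and Mpo, 10 replicated peaks followed each other over 9802 bp (87748114 to 87757915 on chromosome 11), all of them overlapped in both replicates and with signal values between 2.96 and 8.59. The last 4 lay within 1000 bp of a start of Mir142hg, the host gene of the blood cell microRNA miR-142, which is not protein-coding and so was outside the neighbour counts. The stretch was singled out after its values were seen. The nearest of these peaks to Mpo ended 35666 bp from the Mpo start.

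At Cox6a2, a neighbour of Itgam, the strongest TSS peak had a signal value of 28.3 in the replicate 2 list and 4.18 in the replicate 1 list. Values of the lists are on separate scales, with medians over marked genes of 15.5 and 12.1.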
